A study of Rattus norvegicus with 48 samples.

Results

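The genes described here encode the subunits of the proteasome and its dedicated partners, measured in lungs of rats that had inhaled a mixture of mineral dust and diesel particles. They were taken by gene symbol, as all names of the Psma to Psmg families except Psmb8 and Psmb9, with a mean of at least 1 CPM over the 48 libraries. CPM is a gene's count divided by the library's total and scaled to a common size. This gave 43 genes out of 14038 gene names at that level, each with 1 gene identifier. They are 15 genes of the core particle (7 of the alpha ring and 8 of the beta ring), 20 of the regulatory particle (6 ATPases and 14 others), 3 activators, 1 inhibitor and 4 assembly chaperones. Psmb11, at 0.0149 CPM, and Psma8, at 0.0449 CPM, matched by name but lay under the limit. The lowest members inside it were Psmd10 at 3.88 CPM and Psmg4 at 10.1 CPM, and the members with the most counts were Psme1 at 225 CPM and Psme4 at 209 CPM. CPM are not divided by gene length, so these values do not rank the genes. Psme3 was not analysed here.

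The animals were male Sprague-Dawley rats. The exposed groups inhaled 30 mg/m3 fracking sand dust, a mineral dust from the sand used in hydraulic fracturing of wells, together with 1.0 mg/m3 diesel particles, and the air groups inhaled filtered air. Both breathed by whole-body inhalation for 6 hours on each of 4 days, and a piece of lung was taken 1, 7 or 27 days later. Each of the 6 groups held 8 rats with 1 library each, and the rats were housed in pairs that the labels do not identify. Whole lung pieces mix many cell types, so fewer cells of a type and less RNA per cell cannot be told apart.

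The proteasome is the large protease that degrades proteins tagged with ubiquitin and so sets the lifetime of most regulatory and damaged proteins in the cytosol. Its barrel-shaped core particle is built of alpha rings, which gate the entry, and beta rings, which carry the protease sites; the regulatory particle binds ubiquitin chains, removes them and threads the substrate in with a ring of ATPases. Core particles are assembled with the help of dedicated chaperones, and the transcription factor NRF1, the product of Nfe2l1, raises most of the subunit genes together when proteasome activity is short.

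Summed counts per library ran from 9445687 to 14400337. In 4 of the 168 within-group pairs of libraries the counts lay closer together than in the others, with a median squared difference of 1.44 to 1.67 times counting noise, against at least 2.42 times in the other 164 pairs. With libraries numbered 1 to 8 by animal number, they were exposed day 1 libraries 1 and 4, exposed day 7 libraries 3 and 6, air day 7 libraries 1 and 4, and air day 27 libraries 3 and 6. The counts of these pairs differed by more than counting noise, so each library was used as an animal of its own, and results are also given with each such pair summed to 1 library. The lung markers were strongly expressed, with a summed level of 24963 to 39096 CPM over the libraries for 11 genes such as Sftpc and Ager.

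No proteasome gene passed the test at day 1 or day 7, where 0.0279% and 0% of all genes did. At day 27, 8 of the 43 were lower in exposed than in air lungs and none was higher. Over all genes, 3.33% were called lower at that day and 5.52% in either direction. The 8 were members of the beta and alpha rings, the inhibitor, 3 of the 4 core assembly chaperones and 1 base assembly chaperone. These 8 lay lower than air by 0.19 to 0.33 on the log2 scale, and most of these calls did not hold when the close pair of air libraries was counted once. Air day 27 had the highest of the 6 group medians in 33 of the 43 members, against 30.3% of all genes. None of the 8 was called lower in exposed lungs at day 27 than in exposed lungs at day 1 or day 7.

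At day 1 no member passed the test, and the medians of both particles lay slightly under 0. Of the 15 core genes 14 had a log2 fold change under 0, with a median of -0.061, and of the 20 regulatory particle genes 15 did, with a median of -0.039, against a median of 0.0019 over all 14314 genes tested. With 1 surrogate variable as a covariate the core median was -0.013, with 9 of 15 genes under 0, and the regulatory one was 0.0028; with the ribosomal protein level as a covariate they were -0.030 and -0.0098. By edgeR's quasi-likelihood test with Benjamini-Hochberg adjustment 0 of 43 members were called (adjusted p under 0.05), against 0.0279% of all genes, all of them lower. DESeq2 and limma-voom also called 0, and at an unadjusted p under 0.05 edgeR had 1 member, the alpha ring gene Psma5. Psma5 stood at 72.0, 78.2 and 89.1 CPM (lowest, median and highest library) in exposed day 1 lungs, against 76.0, 85.2 and 90.5 CPM in air day 1 lungs. The 2 groups overlapped over most of their range, with a log2 fold change of -0.097 ± 0.046 (SE, adjusted p = 0.573).

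The genes of the protease sites were close to air at day 1. Psmb5, the chymotrypsin-like subunit, had a median of 64.2 CPM in exposed and 64.2 CPM in air day 1 lungs. Psmb6, the caspase-like subunit, had 51.4 CPM in exposed and 54.9 CPM in air lungs, and Psmb7, the trypsin-like subunit, had 95.2 CPM in exposed and 99.0 CPM in air lungs. Psmb10, which replaces Psmb7 in immunoproteasomes, had 56.0 CPM in exposed and 58.8 CPM in air lungs. The adjusted p of these 4 genes ran from 0.732 to 0.982. Among the core and regulatory members with the smallest p, log2 fold changes were -0.080 for Psma6, -0.076 for Psma4, -0.066 for the lid subunit Psmd7, -0.072 for the ATPase Psmc4 and -0.077 for the lid subunit Psmd6. The inhibitor Psmf1 differed by -0.0034 ± 0.064 (SE), and the interferon-inducible activators Psme1 and Psme2 by -0.044 and -0.060. Psme4, the activator PA200, differed by -0.0084, and the chaperones Psmg1, Psmg2, Psmg3 and Psmg4 by -0.088, 0.058, -0.054 and -0.025.

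At day 7 no gene of the whole table was called (0% of 14259), and so no member. An unadjusted p under 0.05 was reached by 2 members, and DESeq2 and limma-voom called 0. Core particle genes had a median log2 fold change of -0.034, with 12 of 15 under 0, and regulatory particle genes one of -0.019, with 14 of 20 under 0, against -0.00080 over all genes. The smallest p belonged to Psmd14, the deubiquitinase that cleaves ubiquitin chains off the substrate. Psmd14 stood at 45.7, 48.5 and 58.5 CPM (lowest, median and highest) in exposed day 7 lungs, against 49.8, 55.4 and 59.5 CPM in air day 7 lungs. The ranges overlapped, and the log2 fold change was -0.15 ± 0.050 (SE, adjusted p = 0.463).

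The other member at an unadjusted p under 0.05 at day 7 was the protease subunit Psmb6. It stood at 43.2, 46.0 and 51.4 CPM in exposed day 7 lungs, against 44.3, 49.8 and 55.9 CPM in air day 7 lungs, with a log2 fold change of -0.12 ± 0.048 (SE, adjusted p = 0.508). The other core and regulatory genes with the smallest p, Psma1, Psmb3, the lid subunit Psmd3 and the ATPase Psmc2, differed by -0.074, -0.094, -0.072 and -0.051. Psmb5, Psmb7 and Psmb10 differed by -0.066, 0.042 and -0.022. All 4 chaperones lay under 0, at -0.021 for Psmg1, -0.050 for Psmg2, -0.17 for Psmg3 and -0.17 for Psmg4. The activators Psme1, Psme2 and Psme4 lay above 0, at 0.030, 0.043 and 0.062, and the inhibitor Psmf1 lay at -0.041. None of these had an adjusted p under 0.6.

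At day 27, 8 of 43 members were called lower and 0 higher in exposed than in air lungs. Of all 14192 genes 5.52% were called and 3.33% were called lower. All 15 core genes had a log2 fold change under 0, though only 14 did with RLE or DESeq2 size factors. Their median was -0.15, a level 9.77% lower in exposed lungs. Of the 20 regulatory particle genes 13 lay under 0, with a median of -0.041, 2.79% lower, against -0.0081 over all genes. An unadjusted p under 0.05 was reached by 10 of 15 core genes, 5 of 20 regulatory particle genes and 7 of the 8 others, all lower in exposed lungs, or 51.2% of the members against 26.7% of all genes. In no member did the exposed and air ranges separate at any day, and the share of all genes that separate is not given here.

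**Figure D1:**
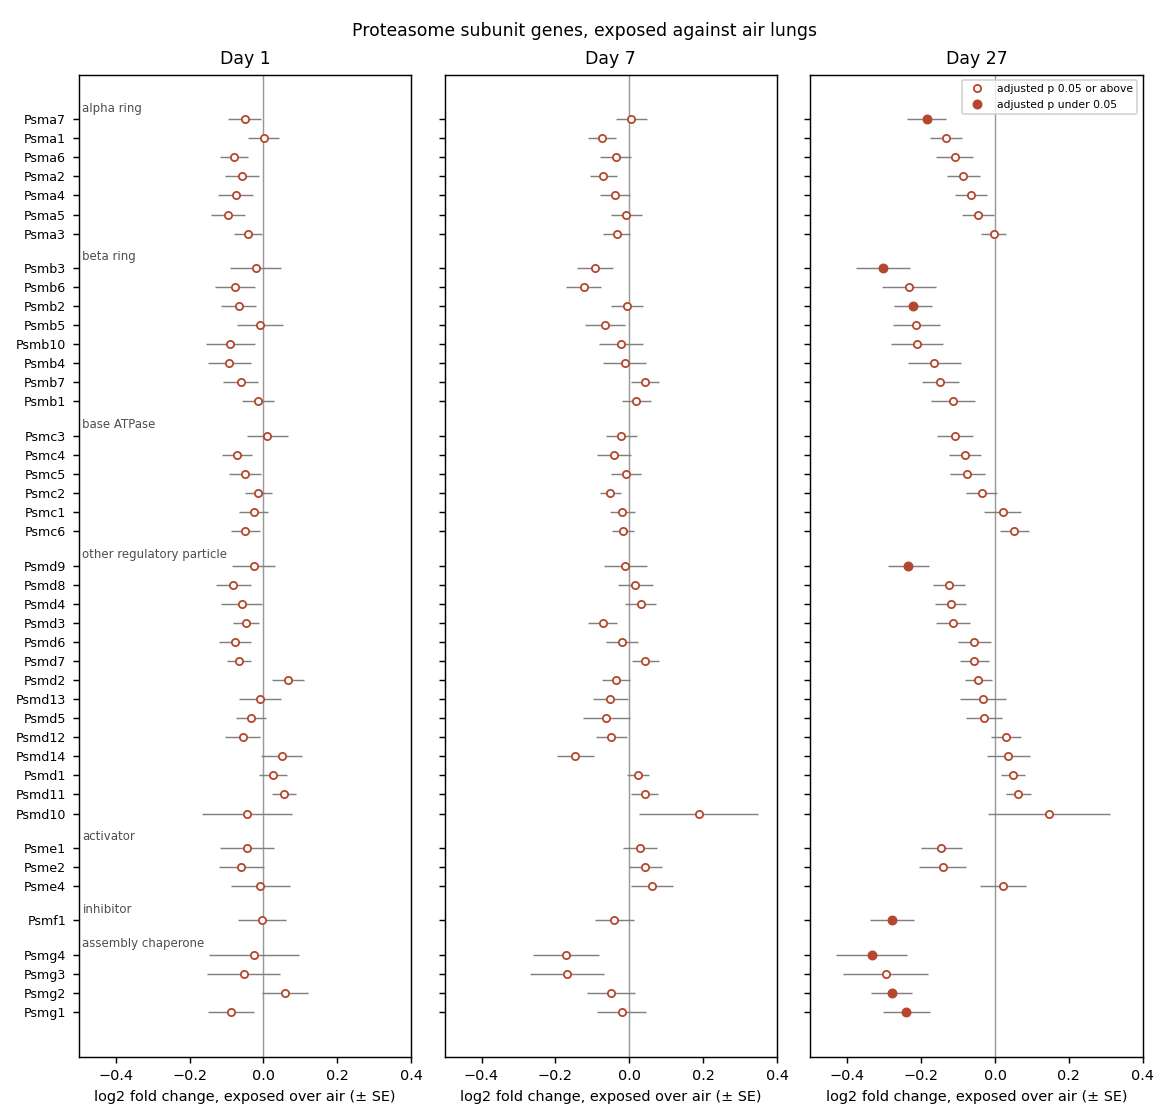
Log2 fold change of each of the 43 genes, exposed over air (horizontal axis, circle with SE bar), at days 1, 7 and 27, grouped by role; filled circles have an adjusted p under 0.05 in edgeR. There are 0 filled circles at days 1 and 7 and 8 at day 27, all left of 0, and at day 27 the beta ring and the chaperones lie further left than the ATPases.

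In the core particle, the beta ring had a median log2 fold change of -0.21 at day 27 and the alpha ring one of -0.086. Psmb2, a beta ring subunit without a protease site, stood at 65.3, 71.7 and 77.8 CPM (lowest, median and highest) in exposed day 27 lungs, against 71.3, 85.7 and 93.2 CPM in air day 27 lungs. Of the 8 air libraries 6 lay above the highest exposed library. The log2 fold change of Psmb2 was -0.22 ± 0.051 (SE, adjusted p = 0.0288). Psmb3, another beta ring subunit without a protease site, stood at 57.5, 64.5 and 72.3 CPM in exposed lungs, against 64.8, 85.8 and 91.9 CPM in air lungs. Of the air libraries 5 lay above all exposed ones, between 85.7 and 91.9 CPM, and the other 3 lay between 64.8 and 72.2 CPM, within the exposed range. The log2 fold change of Psmb3 was -0.30 ± 0.073 (SE, adjusted p = 0.0324). Psma7, of the alpha ring, stood at 98.4, 112 and 118 CPM in exposed lungs, against 116, 122 and 149 CPM in air lungs. Of the exposed libraries 6 lay below the lowest air library, with a log2 fold change of -0.19 ± 0.054 (SE, adjusted p = 0.0485).

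The 4 protease subunits had log2 fold changes of about the same size at day 27 but did not pass the threshold. Psmb5 stood at 55.4, 62.4 and 71.2 CPM in exposed day 27 lungs, against 64.9, 71.7 and 89.2 CPM in air day 27 lungs. Of the 8 exposed libraries 5 lay below the lowest air library and the others below the mean of the air group, with a log2 fold change of -0.21 ± 0.065 (SE, adjusted p = 0.0569). Psmb6 had medians of 53.1 CPM in exposed and 63.5 CPM in air lungs, a log2 fold change of -0.23 ± 0.074 (SE, adjusted p = 0.0637). Psmb7 ran from 90.7 to 107 CPM in exposed and from 99.8 to 127 CPM in air lungs, a log2 fold change of -0.15 ± 0.050 (SE, adjusted p = 0.0778). Psmb10 had 55.3 CPM in exposed and 63.9 CPM in air lungs, a log2 fold change of -0.21 ± 0.070 (SE, adjusted p = 0.0737). DESeq2, by which 11.3% of all genes were called, called all 4. The remaining core genes ran from Psmb4 at -0.16 to Psma3 at -0.0037; Psma3 had medians of 154.0 CPM in exposed and 153.9 CPM in air lungs.

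In the regulatory particle, Psmd9 was the 1 of 20 genes called at day 27. Psmd9 is a chaperone of the ATPase ring that leaves before the particle is complete. It stood at 17.1, 18.9 and 21.1 CPM in exposed day 27 lungs, against 20.9, 22.1 and 24.0 CPM in air day 27 lungs. Of the 8 exposed libraries 7 lay below the lowest air library, and the log2 fold change was -0.24 ± 0.056 (SE, adjusted p = 0.0322). Of the 17 members that stay in the finished particle 0 were called, 4 had an unadjusted p under 0.05, and 11 lay under 0. Their median was -0.045, and DESeq2 and limma-voom called 0 of them too. With all 48 libraries in 1 fit, where 15% of all genes were called, Psmd3 was called lower (edgeR adjusted p = 0.0396). Adrm1, a regulatory particle gene outside the Psm names and so not a member, was called lower and is described below. The next smallest p belonged to the lid subunit Psmd8 and the ubiquitin receptor Psmd4, with log2 fold changes of -0.13 and -0.12 (adjusted p 0.0842 and 0.0848). The 6 ATPases ran from Psmc3 at -0.11 to Psmc6 at 0.052. The large scaffold subunits Psmd1 and Psmd2 lay at 0.048 and -0.045, the deubiquitinase Psmd14 at 0.036 and the other base chaperones Psmd5 and Psmd10 at -0.030 and 0.15. Psmd10, the member with the fewest counts, had an SE of 0.17.

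Of the 8 other members, 4 were called at day 27. Psmg2, which pairs with Psmg1 to start the alpha ring, had the smallest p of all members. It stood at 21.4, 22.2 and 24.7 CPM in exposed day 27 lungs, against 23.7, 27.6 and 31.4 CPM in air day 27 lungs. Of the exposed libraries 7 lay below the lowest air library, and the log2 fold change was -0.28 ± 0.056 (SE, adjusted p = 0.0227). Psmf1, or PI31, which inhibits the core particle in vitro, stood at 36.6, 41.4 and 46.7 CPM in exposed lungs, against 46.6, 49.0 and 59.7 CPM in air lungs. Here too 7 exposed libraries lay below the lowest air library, with a log2 fold change of -0.28 ± 0.059 (SE, adjusted p = 0.0280).

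Psmg1, the partner of Psmg2, stood at 23.6, 27.7 and 29.9 CPM in exposed day 27 lungs, against 28.9, 31.1 and 36.9 CPM in air day 27 lungs. Its log2 fold change was -0.24 ± 0.063 (SE, adjusted p = 0.0371), and 6 exposed libraries lay below the lowest air library. Psmg4, which forms the second chaperone pair with Psmg3, stood at 8.31, 9.32 and 12.7 CPM in exposed lungs, against 9.49, 12.4 and 14.3 CPM in air lungs. The air mean exceeded 7 of 8 exposed libraries in Psmg4, whose log2 fold change was -0.33 ± 0.095 (SE, adjusted p = 0.0465). Psmg3 had medians of 9.49 CPM in exposed and 11.4 CPM in air lungs, a log2 fold change of -0.30 ± 0.11 (SE, adjusted p = 0.115). The median over the 4 chaperones was -0.29, 18.1% lower in exposed lungs. The activators were not called: Psme1 lay at -0.15, Psme2 at -0.14 and Psme4 at 0.022.

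**Figure D2:**
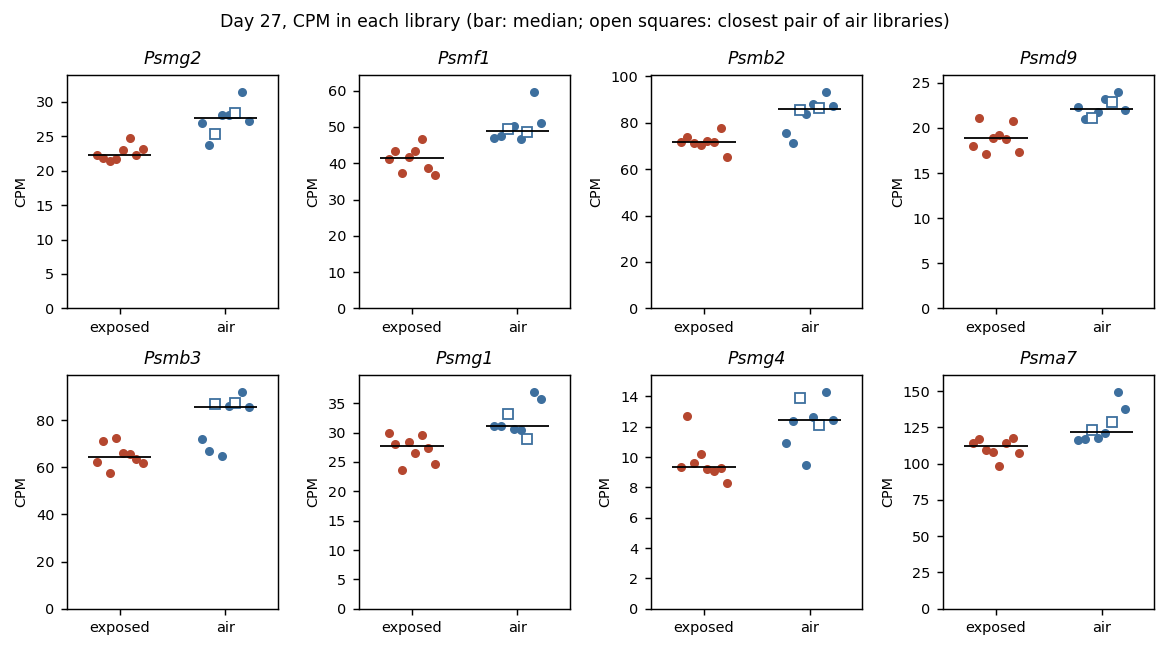
CPM (vertical axis, from 0) in each of the 8 exposed and 8 air day 27 libraries for the 8 called genes; bars are medians and open squares are air libraries 3 and 6, the close pair. In Psmg2, Psmf1 and Psmd9, 7 of 8 exposed libraries lie below every air library, while in Psmb3 3 of the 8 air libraries lie within the exposed range.

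These calls depended on single libraries. With air libraries 3 and 6 summed to 1, 1 member was still called, Psmg2 (adjusted p = 0.0476), while 0.217% of all genes were, and the 7 others had adjusted p of 0.0528 to 0.0802. The log2 fold changes moved little: the core median was -0.14 and the regulatory one -0.042 with the pair summed. Leaving out 1 library at a time gave 0 to 17 called members. None was left without exposed library 3 or without air library 6, where 0.0631% and 0.162% of all genes were called. There was 1 without exposed library 8 or air library 3, 2 without exposed library 1 or air library 5, 7 or 8, 3 without exposed library 6 or 7, and 5 without exposed library 5. There were 6 without exposed library 4, 10 without air library 4 and 12 without air library 1. Without exposed library 2 there were 13, where 10.6% of all genes were called. Without air library 2 there were 17, where 13.5% of all genes were called. Psmg2 was called in 14 of these 16 fits, Psmf1 in 11, Psmb2 in 8, Psmd9 in 7, Psmb3 in 6, Psmg1 in 5 and Psmg4 and Psma7 in 4 each.

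**Figure D3:**
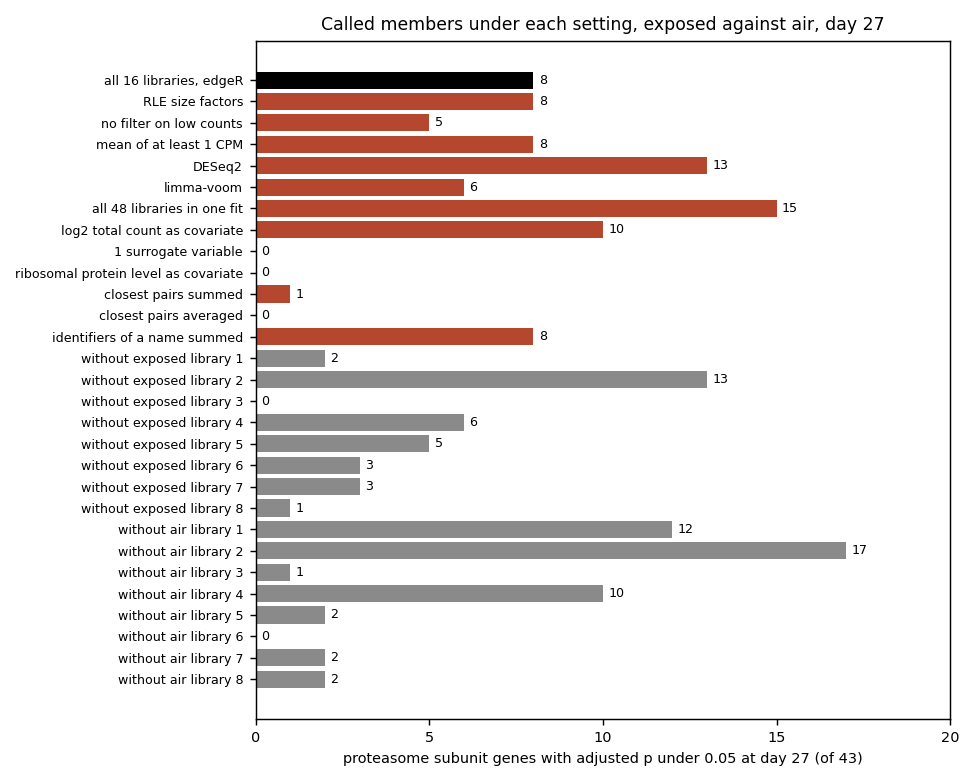
Number of the 43 genes with an adjusted p under 0.05 at day 27 (horizontal axis), in edgeR with all 16 libraries (black, 8 genes), under other settings (red) and with each library left out (grey). The count runs from 0 to 17. It is 1 with the close pair of air libraries summed and 0 with the ribosomal protein level as a covariate. Over the same fits 0% to 15% of all genes were called.

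Promoter sequences are shown for 4 called genes, as RefSeq gives them for the build GRCr8, from 250 bases before to 50 after the gene start. Psmg2 and Psmf1 had the smallest p at day 27; Psmb2 and Psmd9 were chosen after their values were seen, as the called members whose window holds TGACNNNGC, the core of the antioxidant response element that NRF1 and NRF2 bind. Capitals mark TGACNNNGC and the CCAAT box on either strand.
Psmg2, chr18:63478370-63478669, plus strand: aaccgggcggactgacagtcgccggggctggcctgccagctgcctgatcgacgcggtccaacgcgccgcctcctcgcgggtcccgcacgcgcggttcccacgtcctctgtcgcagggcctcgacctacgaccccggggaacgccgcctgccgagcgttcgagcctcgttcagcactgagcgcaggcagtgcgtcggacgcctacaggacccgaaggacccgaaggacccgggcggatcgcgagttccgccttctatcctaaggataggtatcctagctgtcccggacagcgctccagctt
Psmf1, chr3:160720866-160721165, minus strand: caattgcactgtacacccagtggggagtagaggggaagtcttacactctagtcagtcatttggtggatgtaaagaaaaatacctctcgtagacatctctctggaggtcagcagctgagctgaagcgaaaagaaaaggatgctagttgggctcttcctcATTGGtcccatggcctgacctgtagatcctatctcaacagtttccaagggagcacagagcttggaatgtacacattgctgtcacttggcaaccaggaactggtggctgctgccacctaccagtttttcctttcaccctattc
Psmb2, chr5:144254808-144255107, plus strand: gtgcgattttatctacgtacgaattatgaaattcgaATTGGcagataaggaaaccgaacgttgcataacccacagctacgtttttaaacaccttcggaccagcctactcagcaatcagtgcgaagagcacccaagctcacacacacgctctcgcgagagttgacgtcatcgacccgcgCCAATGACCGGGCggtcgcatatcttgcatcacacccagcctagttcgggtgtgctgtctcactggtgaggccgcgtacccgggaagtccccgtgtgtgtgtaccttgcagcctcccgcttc
Psmd9, chr12:39018215-39018514, minus strand: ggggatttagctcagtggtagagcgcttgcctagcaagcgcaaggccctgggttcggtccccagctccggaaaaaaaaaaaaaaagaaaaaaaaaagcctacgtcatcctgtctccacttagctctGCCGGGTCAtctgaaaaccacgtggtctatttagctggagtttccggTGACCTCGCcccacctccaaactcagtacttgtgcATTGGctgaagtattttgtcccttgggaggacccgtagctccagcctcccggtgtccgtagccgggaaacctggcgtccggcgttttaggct
In Psmb2 the single TGACNNNGC match overlaps 1 of 2 CCAAT matches, Psmd9 holds 2 TGACNNNGC matches and 1 CCAAT match, and Psmf1 holds 1 CCAAT match. The letters of neither motif occur in the Psmg2 window.

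Of the 43 members 39 had a promoter entry. TGACNNNGC, searched on both strands, occurred in 8 of the 39 (20.5%), namely Psma3, Psmb2, Psmb5, Psmb6, Psmd1, Psmd3, Psmd9 and Psme4, and in 12.1% of all 33469 promoters of the same length. CCAAT occurred in 18 of 39 (46.2%), against 37.5% of all promoters, and in 9 of the 14 core particle genes with an entry. CCGGAAG, the core of a site of ETS factors, occurred in 13 of 39 (33.3%), against 8.75% of all promoters, among them 7 of 17 regulatory particle genes. Of the 8 genes with TGACNNNGC, Psmb2 and Psmd9 were called at day 27, beside 8 of all 43 members. The others differed at that day by -0.23 for Psmb6, -0.21 for Psmb5, -0.11 for Psmd3, -0.0037 for Psma3, 0.022 for Psme4 and 0.048 for Psmd1. The part of the motif in these differences was not tested.

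Core and regulatory particle were set side by side in each library as the mean log2 CPM of their genes, less the mean of the air libraries of that day. At day 27 the core level was -0.23, -0.15 and -0.014 (lowest, median and highest) in exposed libraries, against -0.14, 0.011 and 0.20 in air libraries. Of the 8 exposed libraries 4 lay below the lowest air library. The regulatory level was -0.069, -0.049 and 0.018 in exposed day 27 libraries, against -0.076, -0.014 and 0.13 in air day 27 libraries, so that the exposed range lay within the air range. Their difference, core minus regulatory, was -0.17, -0.11 and -0.032 in exposed libraries, against -0.069, 0.013 and 0.066 in air libraries. All 8 exposed libraries lay below the air median and 7 below the lowest air library.

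At the earlier days this difference was smaller. Core minus regulatory had a median of -0.033 in exposed day 1 libraries, against -0.0098 in air day 1 libraries, with 1 of 8 exposed libraries below the lowest air library. At day 7 the medians were -0.019 in exposed and -0.0037 in air libraries, with 2 of 8 exposed libraries below the lowest air library. Within the core, the beta ring level at day 27 had a median of -0.22 in exposed and 0.015 in air libraries, and 6 exposed libraries lay below all air libraries. The alpha ring level had a median of -0.10 in exposed and 0.0051 in air libraries, with 3 below all air libraries. No test was made of these levels, since they are scores over the members.

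**Figure D4:**
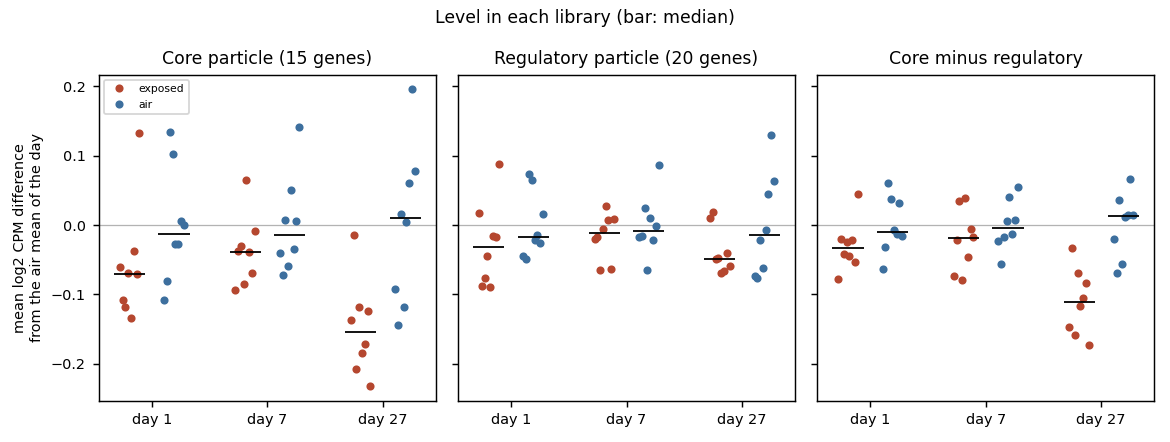
Mean log2 CPM of the 15 core genes, the 20 regulatory particle genes and their difference (vertical axis, log2, relative to the air mean of the day) in each exposed and air library at days 1, 7 and 27; bars are medians. Core minus regulatory at day 27 puts 7 of 8 exposed libraries below every air library.

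Other features of the libraries moved with these levels. The genes of cytosolic ribosomal proteins, 70 of which were tested, lay under 0 in 68 cases at day 27, 36 of them called lower, with a median log2 fold change of -0.23. Their level was -0.31, -0.23 and -0.058 in exposed day 27 libraries, against -0.27, -0.015 and 0.24 in air day 27 libraries. Air library 7 had the highest core, regulatory, chaperone and ribosomal protein level of the air day 27 group, and air library 2 the lowest core and ribosomal protein level. Among exposed day 27 libraries, library 2 was the highest in core and in ribosomal protein level. With the ribosomal protein level as a covariate 0 members and 0 genes of the whole table were called at day 27 in edgeR. The core median was then -0.012 and the regulatory one 0.030, and 5 members had an unadjusted p under 0.05. With 1 surrogate variable in its place 0 members were called, 12 had an unadjusted p under 0.05, and the medians were -0.068 for the core and -0.00059 for the regulatory particle.

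Of the marker lists for other cells, the B and plasma cell genes lay under 0 in 12 of 12 cases at day 27, with Cd79a, Fcrla and Fcer2 called lower and none of the 12 at 0. Their summed level was 456 to 892 CPM in exposed and 362 to 1195 CPM in air day 27 libraries. Of the alveolar macrophage genes 9 of 9 tested lay under 0, Pparg and Cidec were called lower, and the summed level was 486 to 575 CPM in exposed and 485 to 687 CPM in air libraries; the median of Marco was 0 CPM in both groups. Of the lung parenchyma genes 9 of 11 lay under 0, with a median of -0.12 and 0 called (5 lower and 1 higher at an unadjusted p under 0.05), and their summed level was 27098 to 34569 CPM in exposed and 32588 to 39096 CPM in air day 27 libraries. No gene of the heart muscle, red blood cell or neutrophil lists was called at day 27. The part of these cells in the proteasome result was not tested.

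Whether the exposure effect differed between days was tested in 1 fit of all 48 libraries. Of the members 1 was called between day 27 and day 1, where 0.498% of all 14852 genes were. It was Psmg2, whose log2 effect differed by -0.34 ± 0.083 (SE, day 27 minus day 1, adjusted p = 0.0451). With the close pairs summed 0 members were called, and with DESeq2 2 were, Psmg2 and Psmf1 (Psmf1 difference -0.27, DESeq2 adjusted p = 0.0499). The shares of all genes called in these alternative fits are not given here, so their counts cannot be set against such a share. Between day 7 and day 1, 0 members and 0% of genes were called, with 2 members at an unadjusted p under 0.05. Between day 27 and day 7, 0 members and 0.0202% of genes were called, with 13 members at an unadjusted p under 0.05. DESeq2 and limma-voom called 0 members in both. Psmg2 itself differed by -0.23 ± 0.083 between day 27 and day 7 (SE, adjusted p = 0.205) and was not called. By edgeR, the effects on the other 7 genes called at day 27 were not shown to differ from either earlier day.

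Set across the 6 groups, air day 27 was the group in which most members were highest. It had the highest of the 6 group medians in 33 of 43 members, namely in 14 of 15 core genes, 13 of 20 regulatory particle genes and 6 of the 8 others, against 30.3% of all 14852 genes. Psmb3, for example, had medians of 61.7 CPM in exposed and 63.7 CPM in air day 1 lungs, 56.9 CPM in exposed and 59.9 CPM in air day 7 lungs, and 64.5 CPM in exposed and 85.8 CPM in air day 27 lungs. The medians of the other 5 groups thus lay within 56.9 to 64.5 CPM. Single libraries overlapped, since air day 27 began at 64.8 CPM and exposed day 1 reached 80.1 CPM. Psmg2 had medians of 23.0 CPM in exposed and 22.5 CPM in air day 1 lungs, 21.5 CPM in exposed and 22.4 CPM in air day 7 lungs, and 22.2 CPM in exposed and 27.6 CPM in air day 27 lungs. Psmd2, of the regulatory particle, varied less, with 209.8 CPM in exposed and 198.4 CPM in air day 1 lungs, 196 CPM in exposed and 198.1 CPM in air day 7 lungs, and 214 CPM in exposed and 219.6 CPM in air day 27 lungs.

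**Figure D5:**
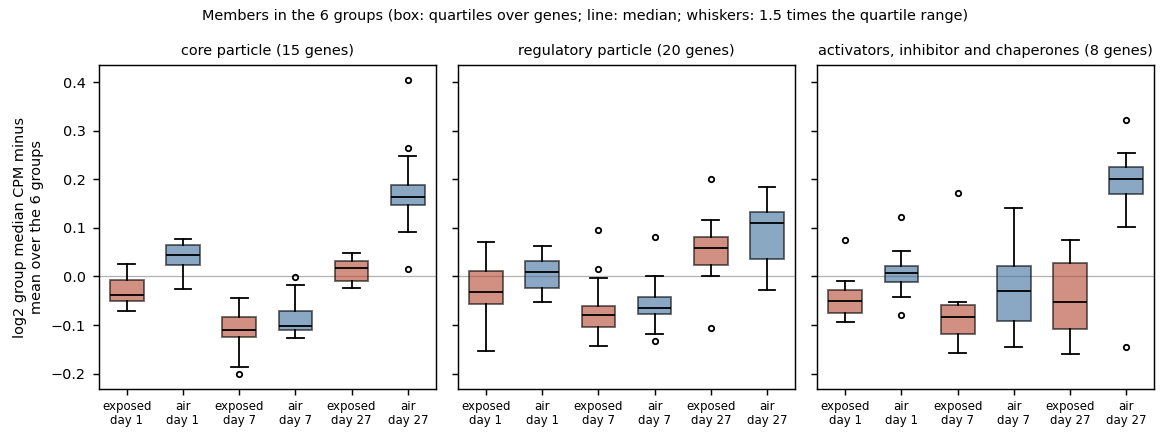
Log2 of each gene's group median CPM less its mean over the 6 groups (vertical axis), as boxes over the 15 core genes, the 20 regulatory particle genes and the 8 others. Air day 27 has the highest group median in 33 of the 43 genes; exposed day 27 lies between the day 1 groups in the core panel.

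Contrasts between days were also made within each treatment. In exposed lungs 13 members were higher at day 27 than at day 7 (6.36% of all genes) and 1, Psme4, was lower, and 5 were higher at day 27 than at day 1 (5.87% of all genes). The median log2 fold change over the members in exposed lungs was 0.13 from day 7, with 41 of 43 above 0, and 0.042 from day 1. The 5 were the ATPases Psmc1, Psmc2 and Psmc6 and the lid subunits Psmd6 and Psmd7, and 0 of the 15 core genes were among them. In air lungs 33 members were called higher at day 27 than at day 7 (20% of all genes were), and 1, Psme4, was lower. Of the 33, 14 were core, 13 regulatory particle and 6 other genes, and the median log2 fold change over the members was 0.20, with 41 of 43 above 0, against 0.018 over all genes. For the regulatory particle alone the day 27 over day 7 median was 0.13 in exposed and 0.15 in air lungs, and for the core it was 0.13 in exposed and 0.27 in air lungs. Between air day 27 and air day 1, 19 members were higher (9.15% of all genes) and 0 lower, with a median of 0.11. With the close pairs summed, 31 members were higher at air day 27 than at air day 7, and 13 than at air day 1. In exposed lungs these counts were 12 and 5 with the pairs summed. The shares of all genes in the fits with pairs summed are not given here. The difference between treatments in these contrasts is the difference of exposure effects tested above.

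By gene, Psmb2 at day 27 over day 7 gave 0.098 ± 0.048 on the log2 scale in exposed lungs (SE, adjusted p = 0.173), and it was higher by 0.31 ± 0.047 in air lungs (adjusted p = 2.3e-06). For Psmg2 these values were 0.061 ± 0.059 in exposed lungs (adjusted p = 0.534) and 0.29 ± 0.058 in air lungs (adjusted p = 0.000142). Psme4 was lower at day 27 than at day 7 in both, by -0.30 ± 0.071 in exposed lungs (adjusted p = 0.00349) and by -0.26 ± 0.071 in air lungs (adjusted p = 0.00273). The contrasts in air lungs and the exposure contrast at day 27 share the 8 air day 27 libraries, so they are not separate evidence. The days were deposited as separate tables, and time after exposure and any batch of a day cannot be told apart.

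Around the proteasome, a few listed genes were called at day 27, some higher and some lower. Over all 14192 genes, 473 were called lower and 310 higher, or 5.52% in either direction. The lists were not tested as sets. Of 15 shuttles and associated proteins, Ddi2 was called higher and Adrm1 lower. Ddi2, the protease that cleaves and activates NRF1, stood at 93.8, 107 and 109 CPM in exposed day 27 lungs, against 71.0, 87.1 and 95.4 CPM in air day 27 lungs. Each of the 8 exposed libraries exceeded the mean of the air group, and the log2 fold change of Ddi2 was 0.29 ± 0.058 (SE, adjusted p = 0.0241). Adrm1, a ubiquitin receptor of the regulatory particle, stood at 56.4, 62.3 and 65.2 CPM in exposed lungs, against 63.3, 67.3 and 76.3 CPM in air lungs. The log2 fold change of Adrm1 was -0.16 ± 0.045 (SE, adjusted p = 0.0419). Pomp, the maturation factor of the core particle, was counted at only 6.16 CPM in exposed and 6.33 CPM in air lungs (medians) and was not called (adjusted p = 0.660). RefSeq lists pseudogenes of Pomp, and how reads shared with such copies were counted is not given in the sources used here, so this level is uncertain.

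Of 14 genes that control proteasome transcription, 1 was called at day 27, again Ddi2, which both lists hold. Nfe2l1, which encodes NRF1, had medians of 219.0 CPM in exposed and 213 CPM in air day 27 lungs, a log2 fold change of 0.087 ± 0.053 (SE, adjusted p = 0.302). Nfe2l2, which encodes NRF2, had 157 CPM in exposed and 151 CPM in air lungs, a log2 fold change of 0.011 ± 0.046 (SE, adjusted p = 0.904). Of 14 ubiquitin genes and activating or conjugating enzymes, Uba6, an enzyme that activates ubiquitin, was higher and Ube2s, a conjugating enzyme of the mitotic ligase APC/C, was lower. Uba6 stood at 49.6, 55.9 and 58.9 CPM in exposed lungs, against 41.9, 46.4 and 49.0 CPM in air lungs, so all 8 exposed libraries lay above the highest air library. Its log2 fold change was 0.26 ± 0.047 (SE, adjusted p = 0.0208), and it was the 1 gene named from these lists that was still called with the close pair summed (adjusted p = 0.0476). Ube2s differed by -0.22 ± 0.058 (SE, adjusted p = 0.0387).

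Of 14 genes of the segregase p97 and its adaptors, which extract ubiquitin-tagged proteins, Ubxn1 and Ubxn6 were lower at day 27, by -0.23 and -0.22 on the log2 scale (adjusted p = 0.0340 and 0.0371), and 0 were higher. Of 13 genes of the immunoproteasome and of class I peptide loading, Canx, an ER chaperone, and Erap1, which trims peptides, were higher, by 0.15 and 0.16 (adjusted p = 0.0342 and 0.0456). The immunoproteasome subunits were not called. Psmb8 had medians of 86.4 CPM in exposed and 100.5 CPM in air lungs, a log2 fold change of -0.19 ± 0.12 (SE, adjusted p = 0.343). Psmb9 had 76.2 CPM in exposed and 86.1 CPM in air lungs, a log2 fold change of -0.22 ± 0.085 (SE, adjusted p = 0.115). With the close pair of air libraries summed, the adjusted p was 0.0512 for Ddi2, 0.0766 for Adrm1, 0.0729 for Ube2s, 0.0644 for both Ubxn1 and Ubxn6, 0.0647 for Canx and 0.0879 for Erap1. At days 1 and 7 no gene of these 5 lists was called.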

How the data were processed

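The deposited values are expected counts, estimated fragments per gene in each library, given in 1 table per day with 32285 gene identifiers and their names. On average 5.58% of a library's values were fractional, and all were rounded. Per the labels' protocols, libraries were made from a piece of lung with a stranded mRNA kit. Tools named in the submitters' processing notes are Salmon 1.10.1, STAR 2.6.1d, Trim Galore 0.6.7, cutadapt 3.4 and bcl2fastq 2.19, with the build Rnor_6.0; settings are not given in the sources used here.

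Groups came from the labels, and libraries were numbered by animal number within each group. The most-counted identifier stood for each gene name, and all 43 members passed the filter at every day. Exposed and air were compared within each day over all genes with edgeR 4.0.16 (R 4.3.3; TMM factors, filterByExpr, robust quasi-likelihood F test, Benjamini-Hochberg adjustment, threshold 0.05). Adjusted p are from edgeR unless another tool is named. SE is the log2 fold change divided by the square root of F. Contrasts between days came from 1 fit of all 48 libraries. CPM use TMM factors over the 48 libraries. Alternatives were RLE factors, DESeq2 1.42.0, limma-voom (limma 3.58.1), no filter, a filter at 1 CPM, all 48 libraries in 1 fit, the log2 total, 1 surrogate variable (sva 3.50.0) or the ribosomal protein level as a covariate, close pairs summed or averaged, identifiers of a name summed, and each library left out. Close pairs were found from genes averaging 20 counts or more, by setting each gene's squared difference against the variance that counting alone gives. The steps were tested on simulated data.

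Named were called members, at each day the 3 core and 3 regulatory particle members with the smallest p, the protease subunits, activators, inhibitor and chaperones, and up to 3 called genes per list. Genes outside this rule were chosen after their values were seen. The members and lists were chosen with earlier results of these data known. Promoters are from RefSeq (GRCr8) and were matched by symbol. No coordinates of Rnor_6.0 are given. P-values measure the spread between libraries, and no term for cage was fitted.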

Additional observations from a re-analysis of the deposited data

Results flagged for a closer look

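Of 60 groups of 8 libraries screened for a library far from the others, 8 were picked out, where chance picks out about 1 in 20. In the exposed day 1 group, 1 library had a core particle level of 0.13 and a Psmg1 level of 31.7 CPM, each the highest and apart from the rest. In the exposed day 7 group the lowest Psmd9 value, 16.3 CPM, lay apart, and in the air day 7 group so did the lowest Psmd9 value, 16.8 CPM, the lowest Psmg1 value, 20.7 CPM, and the highest Psmb3 value, 72.4 CPM. In the exposed day 27 group the highest Psmg4 value, 12.7 CPM, lay above the other 7 libraries, at 8.31 to 10.2 CPM. In the air day 27 group the highest Psmf1 value, 59.7 CPM, lay above the other 7, at 46.6 to 51.2 CPM.

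The exposure effect on Psmg2 differed between days 27 and 1 by -0.34 on the log2 scale in edgeR. Psmg2 was lower in all 8 exposed day 27 libraries than the air mean of that day.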

How the results depend on the processing

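The count of 0 called members at days 1 and 7 held under all 12 alternatives and each library left out. At most 0.293% of all genes were called in these fits at day 1 and 0.126% at day 7. At day 27 there were 8 called members, beside 5.52% of all genes. This became 5 with no filter on low counts (2.35% of all genes), 13 with DESeq2 (11.3%) and 15 with all 48 libraries in 1 fit (15%). It was 1 with close pairs summed (0.217%) and 0 with them averaged (0.0351%). It was also 0 with 1 surrogate variable (0.5%) and with the ribosomal protein level as covariate (0%). Leaving out 1 library gave 0 to 17, with 0.0631% to 13.5% of all genes called. The core median at day 27 was -0.012 with the ribosomal covariate, -0.068 with 1 surrogate variable and -0.17 to -0.12 without 1 library. Psmg2's difference between days 27 and 1 was the 1 called, which became 2 with DESeq2 and 0 with close pairs summed, both without a share over all genes to set beside them. Members higher in exposed lungs at day 27 than at day 1 became 8 with DESeq2, whose share over all genes is not given here. DESeq2 was chosen for this contrast after seeing the data, as were all alternatives for contrasts within a treatment. Causes were not tested.

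Among single genes, those that changed sign were not called in the 16-library fits. The regulatory median was 0.0028 at day 1 and -0.00059 at day 27 with 1 surrogate variable, and 0.030 at day 27 with the ribosomal covariate. At day 1 with 1 surrogate variable Psmb5 gave 0.065, Psmb7 0.0025, Psme1 0.043, Psme2 0.013, Psmf1 0.072, Psmg3 0.058 and Psmg4 0.059. With the ribosomal covariate Psmb5 gave 0.042, Psme1 0.018, Psmf1 0.055, Psmg3 0.025 and Psmg4 0.023 at day 1. Psmf1 gave 0.0021 with pairs summed and 0.0024 averaged. At day 27 Psme4 gave -0.065 with the surrogate variable, -0.17 with the ribosomal covariate, -0.0030 with pairs summed and -0.000436 averaged. With the ribosomal covariate at day 27 Psme1 gave 0.012, Psme2 0.049, Psmb8 0.030, Nfe2l1 -0.025 and Nfe2l2 -0.0071, and Nfe2l2 gave -0.0026 with pairs summed. Without 1 library the ranges were -0.045 to 0.023 for Psmb5, -0.036 to 0.024 for Psmf1, -0.081 to 0.037 for Psmg4, -0.045 to 0.025 for Psme4 and -0.10 to 0.0070 for Psmg3 at day 1. They were -0.057 to 0.012 for Psmb10 and -0.060 to 0.014 for Psmg1 at day 7, and -0.0068 to 0.069 for Psme4 and -0.0039 to 0.035 for Nfe2l2 at day 27. Depth limits the low members most: Psmd10 had an SE of 0.17 at day 27.

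No paired analysis was possible because the labels give no numbers shared between groups.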
